A study of Mus musculus with 33 samples.

Results

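Mouse liver 1 day (1 d) after surgery was compared with liver at 0 d, gene by gene, on 6 of the 33 arrays of a regeneration series. The standard errors and p-values rest on a spread estimated from all 33 arrays. The series followed livers through 11 times from 0 to 14 d after a 70% partial hepatectomy, the removal of most of the organ, with 3 arrays per time, titled as biological replicates. The 6 arrays were chosen by their titles alone, and all 18193 genes named by a single-symbol probe set were eligible, of which 13642 passed a low-signal filter and were tested. Both groups are liver from the same partial hepatectomy series, labelled 0-day and 1-day. The labels name no strain, sex, age, genotype or feeding state and no hour of the day, and no sham-operated group was analysed here, so the effect of operation, anaesthesia, fasting or time of day cannot be told apart from that of the lost tissue. The description field also calls the 0 d samples AC from fat tissue and the 1 d samples DFAT at semiconfluence, against the tissue and source fields, which give liver. Values were checked against the tissue. Albumin (Alb) stood at 14.68, 14.71 and 14.68 (log2) at 0 d and 14.60, 14.66 and 14.67 at 1 d. The fat-cell hormone gene Adipoq averaged 3.73 and 3.04, near the floor of the arrays. Of the other fat-cell markers tested, Cidec and Ucp1 also averaged below the filter level of 5 at both times. Car3, Fabp4, Lipe, Pparg and Retn averaged above it at both times. Car3 averaged 14.35 at 0 d and 12.16 at 1 d, and Fabp4 7.93 and 9.18. The fat-cell markers were thus not uniformly low, though hepatocytes also express Car3 and Lipe. Of the 9 hepatocyte markers tested, Hnf4a averaged lowest, at 11.96 at 0 d and 12.02 at 1 d. Apoa1 averaged 14.47 and 14.43, and Ttr 14.45 and 14.38. The arrays were read as liver.

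After a large resection the remaining hepatocytes, which are quiescent in the adult, leave G0 and pass through G1 within the first day or so in the mouse. During G1 a cell loads the MCM helicase on replication origins with the help of Cdc6. Genes of these proteins are driven by E2F transcription factors once the retinoblastoma proteins are phosphorylated, towards the G1/S border. The liver meanwhile goes on secreting plasma proteins, mounts an acute phase response to cytokines of the IL-6 family, and supplies energy and membrane lipid from a reduced mass.

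The promoters of the licensing genes that rose at 1 d are shown first, because they carry the sequence element by which E2F is known to act. Each window runs from 250 bases before to 50 bases after the RefSeq transcription start, on build GRCm38.p6, 5′ to 3′ on the strand of the gene, with the E2F motif in capitals. The motif was searched as TTTCCCGC, TTTGGCGC, TTTCGCGC or TTTGCCGC on both strands, and overlapping matches run together. Cdc6, which loads the helicase, lies at chr11:98907901-98908200 on the plus strand. Mcm3, Mcm5 and Mcm6 encode helicase subunits and lie at chr1:20820263-20820562 (minus), chr8:75109259-75109558 (plus) and chr1:128359656-128359955 (minus).
Cdc6: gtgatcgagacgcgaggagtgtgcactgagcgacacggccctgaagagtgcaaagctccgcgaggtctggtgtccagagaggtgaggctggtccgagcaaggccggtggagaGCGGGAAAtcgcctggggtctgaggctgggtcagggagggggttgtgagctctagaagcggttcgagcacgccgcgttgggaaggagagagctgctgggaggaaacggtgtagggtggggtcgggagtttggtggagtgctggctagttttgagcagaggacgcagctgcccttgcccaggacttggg
Mcm3: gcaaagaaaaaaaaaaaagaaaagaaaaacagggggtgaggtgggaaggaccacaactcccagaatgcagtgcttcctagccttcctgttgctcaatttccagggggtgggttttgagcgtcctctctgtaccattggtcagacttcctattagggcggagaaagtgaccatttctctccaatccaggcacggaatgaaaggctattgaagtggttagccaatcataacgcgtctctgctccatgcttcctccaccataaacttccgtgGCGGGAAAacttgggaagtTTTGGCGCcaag
Mcm5: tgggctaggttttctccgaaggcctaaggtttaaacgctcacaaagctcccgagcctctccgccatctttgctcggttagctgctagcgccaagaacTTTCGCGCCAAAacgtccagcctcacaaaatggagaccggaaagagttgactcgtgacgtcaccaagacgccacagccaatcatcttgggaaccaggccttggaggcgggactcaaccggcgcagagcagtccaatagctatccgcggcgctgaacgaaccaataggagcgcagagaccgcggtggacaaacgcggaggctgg
Mcm6: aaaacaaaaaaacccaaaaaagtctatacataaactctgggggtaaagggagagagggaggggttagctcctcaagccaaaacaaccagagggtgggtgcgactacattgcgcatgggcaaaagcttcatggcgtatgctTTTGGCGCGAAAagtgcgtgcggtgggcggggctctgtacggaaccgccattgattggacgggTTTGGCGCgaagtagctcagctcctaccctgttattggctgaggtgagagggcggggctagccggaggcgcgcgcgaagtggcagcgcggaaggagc
All 4 of the risen licensing genes with a listed window held the motif, against 2.6% of the 27025 genes of the RefSeq table. A match describes these letters and does not show a bound site. Here and in the motif searches below only the called members of a list were counted. The shares therefore do not set these apart from members that were not called. The lists were made of genes known for each pathway, so a high share may also come from that choice.

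The 6 arrays were alike in range. Their medians lay between 5.32 and 5.35, between 12569 and 12702 genes reached the filter level of 5, and no array repeated another. RMA values hold no read depth, and the 3 arrays per time limit the precision. Within 1 d, replicates 2 and 3 resembled each other most (r = 0.997 over genes, against 0.990 and 0.989 with replicate 1), and replicate 1 lay farthest from the median of its group in 1399 of the 2416 genes called below, or 57.9%. A sign of RNA quality moved with the groups: the 3′ minus 5′ signal of the Actb control probe sets was 0.743 to 0.939 at 0 d and 0.495 to 0.561 at 1 d, without overlap, and that of Gapdh was -0.167 to -0.0401 and -0.220 to -0.211. Its part in the gene differences was not tested.

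The difference between 1 d and 0 d passed an adjusted p of 0.05 (limma, Benjamini-Hochberg over all genes tested) for 2416 genes, or 17.7%. Of these 1113 rose (8.16% of the genes tested) and 1303 fell (9.55%), while the median difference over all genes was -0.007. At least a 2-fold difference was reached by 132 of the risen and 157 of the fallen genes. The 3 arrays of 1 d lay wholly outside the range of the 3 at 0 d in 2324 of the called genes, and over all genes this held for 4953, or 36.3%. Every count of a gene list below is to be read against the 8.16% and 9.55%. Without 1 d replicate 1 the fallen genes numbered 817, and without 0 d replicate 2 the risen genes numbered 738. With only the 6 arrays fitted 857 genes rose and 1005 fell.

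Of the 15 genes with the largest rises 7 were secreted proteins of the acute phase. Lcn2, an iron-siderophore binding protein released by injured liver, read 5.84, 4.64 and 6.27 at 0 d and 13.59, 13.22 and 13.22 at 1 d, a log2 difference of 7.76 ± 0.88 (SE, adjusted p = 9e-07). Saa2, a serum amyloid, rose by 5.51 ± 0.84, Saa1 by 3.92 ± 0.50 and the acid glycoprotein gene Orm2 by 4.70 ± 0.77, each with the arrays of both times wholly apart. Orm2 was highest on 1 d replicate 1, at 13.39 against 12.21 and 12.24. Saa3 stood at 12.64 on that array and at 10.05 and 9.73 on the others, and its rise of 2.87 lost the threshold without it (adjusted p = 0.137), as it did without 0 d replicate 1 (0.0524) or replicate 2 (0.0521). Serpina3n, a protease inhibitor, rose by 2.97 ± 0.21 and Apcs, the serum amyloid P component, by 2.82 ± 0.35. Saa1 and Saa2, and Orm2 and Orm3, are near-identical copies that the probes may not keep apart.

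The other leading risen genes include genes of lipid handling, the cytoskeleton and macrophages. Cyp4a14, a fatty acid hydroxylase, read 8.17, 8.02 and 10.63 at 0 d and 12.58, 12.90 and 12.93 at 1 d, so that 0 d replicate 3 was high within its group and the groups still did not overlap. Apoa4, an apolipoprotein, rose by 3.54 ± 0.38. Tubb2a, a β-tubulin, showed the same pattern, with 8.15, 8.75 and 11.12 at 0 d and 12.13, 12.30 and 12.43 at 1 d. Dynll1, a dynein light chain, rose by 2.64 ± 0.28. Marco, a scavenger receptor of macrophages, read 4.76, 5.39 and 5.55 at 0 d and 8.91, 8.83 and 9.01 at 1 d, with a difference of 3.68 ± 0.63 (adjusted p = 0.000175). In whole tissue, a change in the number of cells of a type and a change in RNA per cell cannot be told apart. Nucb2, the precursor of nesfatin (2.99 ± 0.43), the chemokine Cxcl14 (2.65 ± 0.46) and Cpne8 (2.62 ± 0.35), a calcium-dependent lipid-binding protein, completed the 15 with the largest rises. Cxcl14 read 3.73, 3.31 and 3.55 at 0 d, all below the filter level of 5, and 5.99, 6.15 and 6.39 at 1 d, so the size of its difference rests on values near the floor at 0 d.

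Most of the 15 genes with the largest falls encode enzymes. Upp2, a uridine phosphorylase, read 11.93, 12.20 and 10.97 at 0 d and 7.02, 7.55 and 7.55 at 1 d, a difference of -4.33 ± 0.41 (adjusted p = 8.66e-08), or 20.1-fold lower. Inmt, an indole N-methyltransferase, fell by 3.89 ± 0.52 and Thrsp, a regulator of lipogenesis, fell by 3.75 ± 0.59. Afmid, an enzyme of tryptophan breakdown, held a narrow spread at 0 d, with 9.92, 10.31 and 10.07, and stood at 7.84, 6.99 and 6.91 at 1 d. Lpin1, which has roles in triglyceride synthesis and gene control, was at 10.04, 9.08 and 9.88 and then at 6.68, 6.69 and 6.76. Cyp7a1, which sets the rate of bile acid production, read 12.13, 10.88 and 10.98 at 0 d and 9.38, 8.63 and 8.99 at 1 d. Its fall of 2.33 lost the threshold without 0 d replicate 1 (adjusted p = 0.0669), as did that of the repressor gene Bcl6 (0.0643). Hsd3b5, a male-biased steroid enzyme, read 8.79 on 1 d replicate 1 and 10.15 and 10.28 on the others, and lost it without that array (0.0748). The clock output gene Dbp (-3.51), the endopeptidase Mme (-3.34), the glucuronosyltransferase Ugt2b38 (-3.08), the hepcidin gene Hamp2 (-2.44), the glutathione transferase Gsta2 (-2.43), the dopachrome tautomerase Dct (-2.33) and the carbonic anhydrase Car1 (-2.33) make up the rest of the 15. Car1 likewise lay below the filter level on all 3 arrays of 1 d.

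**Figure D1:**
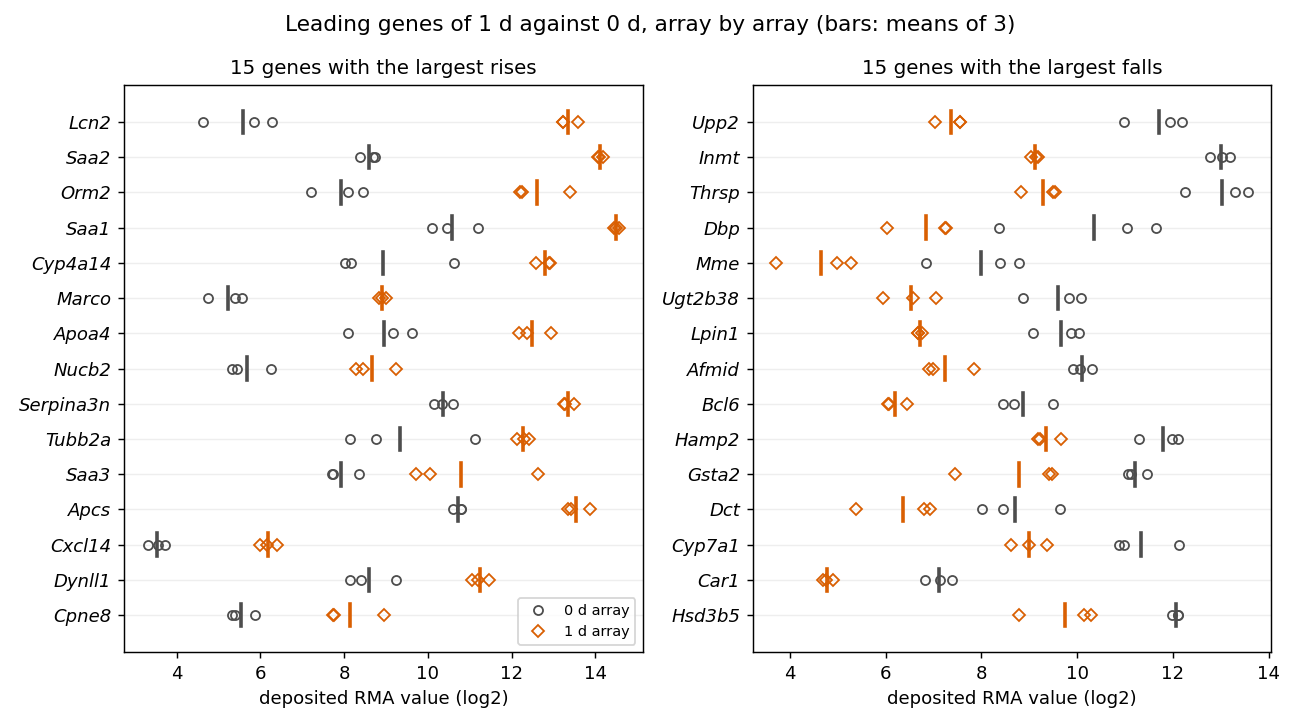
Deposited RMA values (log2, horizontal axis) of the 15 genes with the largest rises (left) and falls (right) among called genes whose arrays lay wholly apart. Circles are the 3 arrays of 0 d, diamonds the 3 of 1 d and bars their means. Lcn2 moved from between 4.64 and 6.27 to between 13.22 and 13.59, and for Cyp4a14, Tubb2a and Dbp the third array of 0 d lies nearest to 1 d.

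Genes were then described by lists, each member standing for itself in the fit of all genes, with no test of a list as a whole. The acute phase list had 19 of 26 tested members risen and 0 fallen, a median of 1.05 against -0.007 over all genes. Heat shock chaperones had 10 of 19 risen and 0 fallen, led by Hsp90aa1 (1.00 ± 0.22), and that count was 2 without 1 d replicate 1, 5 without 1 d replicate 3, 3 without 0 d replicate 2 and 4 when only the 6 arrays were fitted.

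The proteasome had the highest share of risen members among the 37 lists. This complex, which degrades ubiquitin-tagged proteins, had 28 of its 30 tested subunits risen and 0 fallen, with a median difference of 0.494, against 8.16% of all genes. All 30 had their 3 arrays of 1 d above all 3 of 0 d, and the missing calls were Psmd13 (0.33) and Psmb7 (0.31). The rise ran through all parts of the complex in the list. It covered 7 of 7 subunits of the α ring and 6 of 7 of the catalytic β ring. In the cap, 6 of 6 ATPases that unfold the substrate and 9 of 10 non-ATPase subunits rose. The inducible β subunits Psmb8 and Psmb9 were kept in the interferon list and did not rise. Psmb9 fell and Psmb8 was not called. Psmd7, a subunit of the cap, read 8.84, 8.73 and 8.87 at 0 d and 9.77, 9.71 and 9.90 at 1 d, a difference of 0.98 ± 0.11 (adjusted p = 6.09e-07). Psmd14, the deubiquitinase of the cap, read 10.35, 10.18 and 10.50 and then 10.99, 11.16 and 11.23. Psmb5, the chymotrypsin-like catalytic subunit, read 10.84, 10.79 and 10.77 and then 11.28, 11.43 and 11.47. The spread within each time was small beside these differences. None reached 2-fold, and 1 d replicate 1 lay nearest to 0 d in 25 of the 28.

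The unfolded protein response, by which the endoplasmic reticulum raises its chaperones when folding is overloaded, had 15 of 26 tested members risen and 1 fallen, with a median of 0.581. Sdf2l1, a co-chaperone, read 8.82, 9.08 and 9.56 at 0 d and 11.29, 10.79 and 10.80 at 1 d (1.81 ± 0.36, adjusted p = 0.000755). The disulphide isomerase Pdia6 read 11.11, 11.13 and 11.27 and then 12.38, 12.12 and 12.17. Hspa5, the main chaperone of the compartment, was already high at 12.51, 12.32 and 12.56 and stood at 13.34, 12.99 and 13.01. In all 3 the groups were apart and 1 d replicate 1 was the highest. Herpud1, a membrane protein of the same compartment's degradation pathway, moved the other way, from 12.37, 11.97 and 11.60 to 10.94, 10.67 and 10.52 (-1.27 ± 0.33, adjusted p = 0.0087). The call of Herpud1 was lost without 0 d replicate 1, and 3 members fell with only the 6 arrays. The stress transcription factor genes Ddit3 (0.38, adjusted p = 0.265), Atf4 and Xbp1 did not pass. Without 1 d replicate 1, 9 members rose, and 0 d replicate 3 was the array of 0 d nearest to 1 d in 13 of the 15.

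Promoters of Hspa5 and of Creld2, a secreted protein of the reticulum, are shown because the element by which this response acts is spelled out in them. The element was searched as CCAAT and CCACG with 9 bases between them, on both strands, and is in capitals. Hspa5 lies at chr2:34771840-34772139 and Creld2 at chr15:88819396-88819695, both on the plus strand of GRCm38.p6 (RefSeq), and in Creld2 the match is on the opposite strand.
Hspa5: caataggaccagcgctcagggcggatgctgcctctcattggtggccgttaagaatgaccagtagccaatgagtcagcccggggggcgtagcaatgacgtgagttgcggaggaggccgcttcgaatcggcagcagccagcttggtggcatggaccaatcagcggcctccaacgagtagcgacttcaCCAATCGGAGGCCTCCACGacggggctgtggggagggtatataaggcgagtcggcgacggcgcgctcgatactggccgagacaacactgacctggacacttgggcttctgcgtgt
Creld2: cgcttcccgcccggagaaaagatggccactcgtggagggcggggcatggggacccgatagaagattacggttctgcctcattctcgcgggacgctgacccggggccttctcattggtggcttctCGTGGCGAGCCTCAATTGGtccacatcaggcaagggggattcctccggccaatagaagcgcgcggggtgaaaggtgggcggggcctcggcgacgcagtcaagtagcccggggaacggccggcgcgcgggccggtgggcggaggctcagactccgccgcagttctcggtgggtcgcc
Of the 13 risen members with a listed window 7 held the element, against 0.14% of the genes of the table. Other elements were searched in the same way. The heat shock element, searched as the triplets GAA, TTC and GAA or TTC, GAA and TTC with 2 bases between neighbours, was found in 3 of 8 chaperone genes (0.66% of all genes), the sterol element TCACNCCAC in 1 of 6 cholesterol genes (1.44%), and the antioxidant element TGACNNNGC in 4 of 23 proteasome genes (13.99%).

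**Figure D2:**
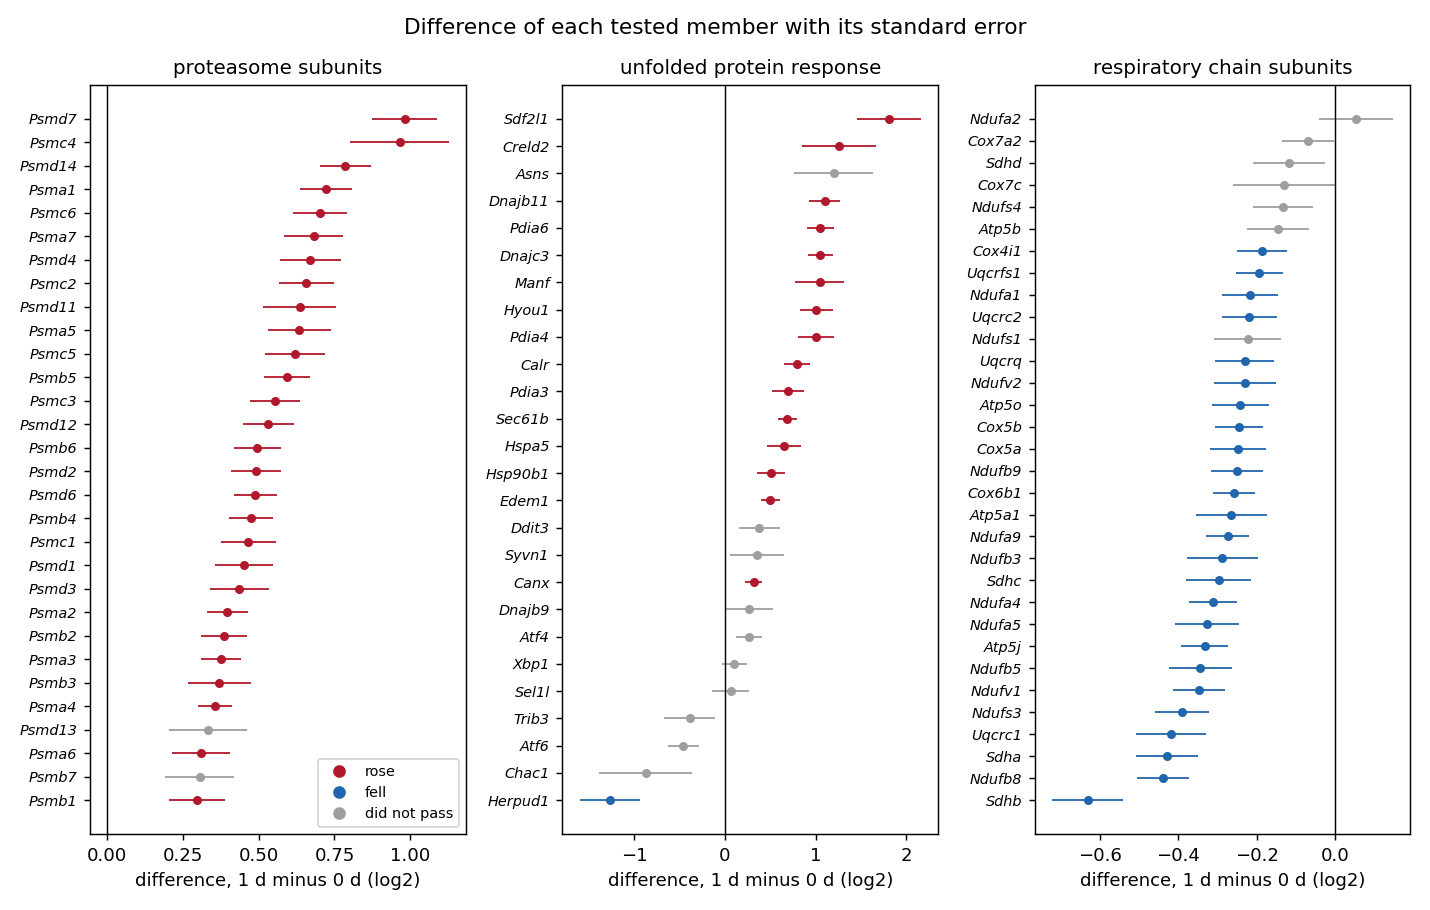
Difference of 1 d minus 0 d (log2, horizontal axis) with its standard error for each tested member of 3 lists, with red for rose, blue for fell and grey for members that did not pass. All 30 proteasome subunits lie to the right of 0, the unfolded protein response runs from 1.81 (Sdf2l1) to -1.27 (Herpud1), and 25 of 32 respiratory chain subunits fell, by at most 0.63.

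The respiratory chain, which makes most of the ATP of the hepatocyte in mitochondria, gave small falls. Of its 32 tested nuclear-encoded subunits 25 fell and 0 rose, with a median of -0.248, against 9.55% of all genes falling. The falls were spread over the complexes, with 11 of 14 subunits of complex I, 3 of 4 of complex II, 4 of 4 of complex III, 4 of 6 of complex IV and 3 of 4 of the ATP synthase. Sdhb, the iron-sulphur subunit of succinate dehydrogenase, fell by 0.63 ± 0.09 (adjusted p = 2.46e-05), and its flavoprotein partner Sdha read 12.45, 12.29 and 12.15 at 0 d and 11.78, 11.91 and 11.92 at 1 d. Ndufb8 of complex I read 11.33, 11.37 and 11.36 and then 10.78, 10.95 and 11.01. Sdhb, Sdha and Ndufb8 each had their arrays wholly apart. The count was 8 when only the 6 arrays were fitted. It was 14 without 1 d replicate 1, 14 without 0 d replicate 1 and 16 without 0 d replicate 2.

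All calls among structural genes were rises. Of 21 tested genes for tubulins, actins, keratins and their partners 11 rose and 0 fell, with a median of 0.675. Tubb5, a β-tubulin, read 8.72, 9.20 and 9.37 at 0 d and 10.27, 10.67 and 10.70 at 1 d, and Actg1, the γ-actin gene, read 10.68, 10.90 and 10.95 and then 12.07, 12.41 and 12.42. Both differed by 1.45, and in neither did the groups overlap. Krt18, a keratin of hepatocytes, rose by 1.04 ± 0.20. Tubb2a, given above, was the largest of the list.

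A few genes of origin licensing rose. Of 24 tested licensing and helicase genes 5 rose and 2 fell, with a median of 0.157. Cdc6 read 2.72, 3.65 and 3.15 at 0 d and 3.66, 5.00 and 4.88 at 1 d, all near or below the filter level, a difference of 1.34 ± 0.39 (adjusted p = 0.0176). Mcm6 read 6.31, 6.28 and 7.17 and then 7.19, 8.06 and 8.24 (1.24 ± 0.36, adjusted p = 0.0174). Mcm5 read 5.55, 5.72 and 6.42 and then 6.29, 7.55 and 7.58. Mcm4 rose by 1.06 ± 0.32 and Mcm3 by 0.96 ± 0.29, while Mcm2 (0.71, adjusted p = 0.0509) and Mcm7 (0.39, adjusted p = 0.294) did not pass. In each of the 5 risen genes 1 d replicate 1 lay nearest to 0 d, and for Mcm5 and Mcm3 it fell among the 0 d arrays. The calls rest on replicates 2 and 3: the count of risen genes was 0 without either of them, 1 without 0 d replicate 1, 1 without 0 d replicate 2, 2 when only the 6 arrays were fitted, and 8 with array weights. Mcm10, a later-acting initiation factor, went the other way, from 10.79, 11.03 and 10.60 to 9.09, 9.79 and 9.91, and Orc5, of the origin recognition complex, fell by 0.39 ± 0.11. Without 1 d replicate 1 neither fall was called, and without 0 d replicate 1 there was 1.

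Genes that act after licensing gave few calls. Among 30 genes of the replication fork and of nucleotide supply 2 rose and 3 fell. Uhrf1, which carries DNA methylation through replication, read 4.37, 4.72 and 4.78 at 0 d and 4.93, 5.97 and 6.32 at 1 d (1.12 ± 0.35, adjusted p = 0.0271). Tk1, the thymidine kinase of S phase, was higher in resting liver, at 8.55, 8.95 and 8.51, than at 1 d, at 6.73, 6.89 and 7.01, and fell by 1.80 ± 0.28 (adjusted p = 7.42e-05). Rrm2, the small subunit of ribonucleotide reductase, stood at 5.79 on 1 d replicate 1 and at 7.10 and 7.23 on the others, within the range of 0 d for replicates 2 and 3, and did not pass (adjusted p = 0.417). Of 25 mitotic genes 1 rose (Tpx2, 0.33) and 1 fell (Pttg1, -0.64), and Mki67, the proliferation marker, read 5.13, 5.23 and 6.34 and then 4.38, 5.17 and 5.02. The rises of both lists were 0 without 1 d replicate 2, 0 d replicate 1 or 0 d replicate 2. Those of the fork list were also 0 without 1 d replicate 3 and 1 without 0 d replicate 3, and the mitotic rise was lost without 1 d replicate 1 and with only the 6 arrays. Array weights gave 5 rises of the fork list.

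Among the regulators of G1 the risen shares were near that of all genes, 7.1% of cyclins and kinases and 7.7% of E2F and pocket genes. The fallen shares were 0.0% and 15.4%. Of 14 cyclins and kinases 1 rose, the phosphatase gene Cdc25a (0.55 ± 0.14), which was not called with either other choice of probe set. Ccnd1, cyclin D1, read 7.81, 8.25 and 8.02 at 0 d and 8.27, 8.90 and 8.98 at 1 d, with no overlap, yet its difference of 0.69 ± 0.44 did not pass (adjusted p = 0.305). E2f6, a repressing E2F, rose from 7.71, 7.59 and 7.43 to 8.25, 8.43 and 8.49 (adjusted p = 9.46e-06), while Rbl2, a pocket protein of quiescent cells (-0.95 ± 0.18), and Tfdp2, an E2F partner (-0.44 ± 0.14), fell. Of these 2 falls 1 was left without 1 d replicate 1, 1 d replicate 2, 0 d replicate 1 or 0 d replicate 2, and the rises of the list numbered 2 without 0 d replicate 3 or with only the 6 arrays and 3 with array weights. Cdkn1a, the p21 inhibitor, was at 7.83, 6.81 and 7.06 against 6.15, 6.32 and 7.18 and did not pass (adjusted p = 0.334). Of the immediate early genes 1 of 18 was called, Jun (1.31 ± 0.43), and 0 were called without 1 d replicate 1, 0 d replicate 1 or 0 d replicate 2. The count was 2 without 1 d replicate 2 or 0 d replicate 3, with only the 6 arrays, array weights, another scaling or the mean of the probe sets of a gene, 3 with the probe set of largest variance and 4 with only the arrays of whole days. Growth factors and receptors had 9.7% risen and 9.7% fallen, near the shares of all genes. Among the 31 tested 3 rose, the ligand genes Inhba (0.82), Tgfa (0.75) and Hgf (0.75). The 3 that fell were the insulin receptor gene Insr (-0.45) and the IGF binding protein genes Igfbp3 (-1.10) and Igfbp4 (-0.27). Of these falls 1 was left without 1 d replicate 2, without 0 d replicate 1 or with the mean of the probe sets of a gene, and array weights gave 5. Of 12 genes of IL-6 signalling 3 fell, among them receptor genes of the acute phase cytokines, and 0 rose, with 1 rise without 0 d replicate 2. Lifr went from 11.48, 11.95 and 11.28 to 9.64, 9.62 and 9.63 (-1.94 ± 0.16), and Il6ra fell by 1.22 ± 0.30.

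**Figure D3:**
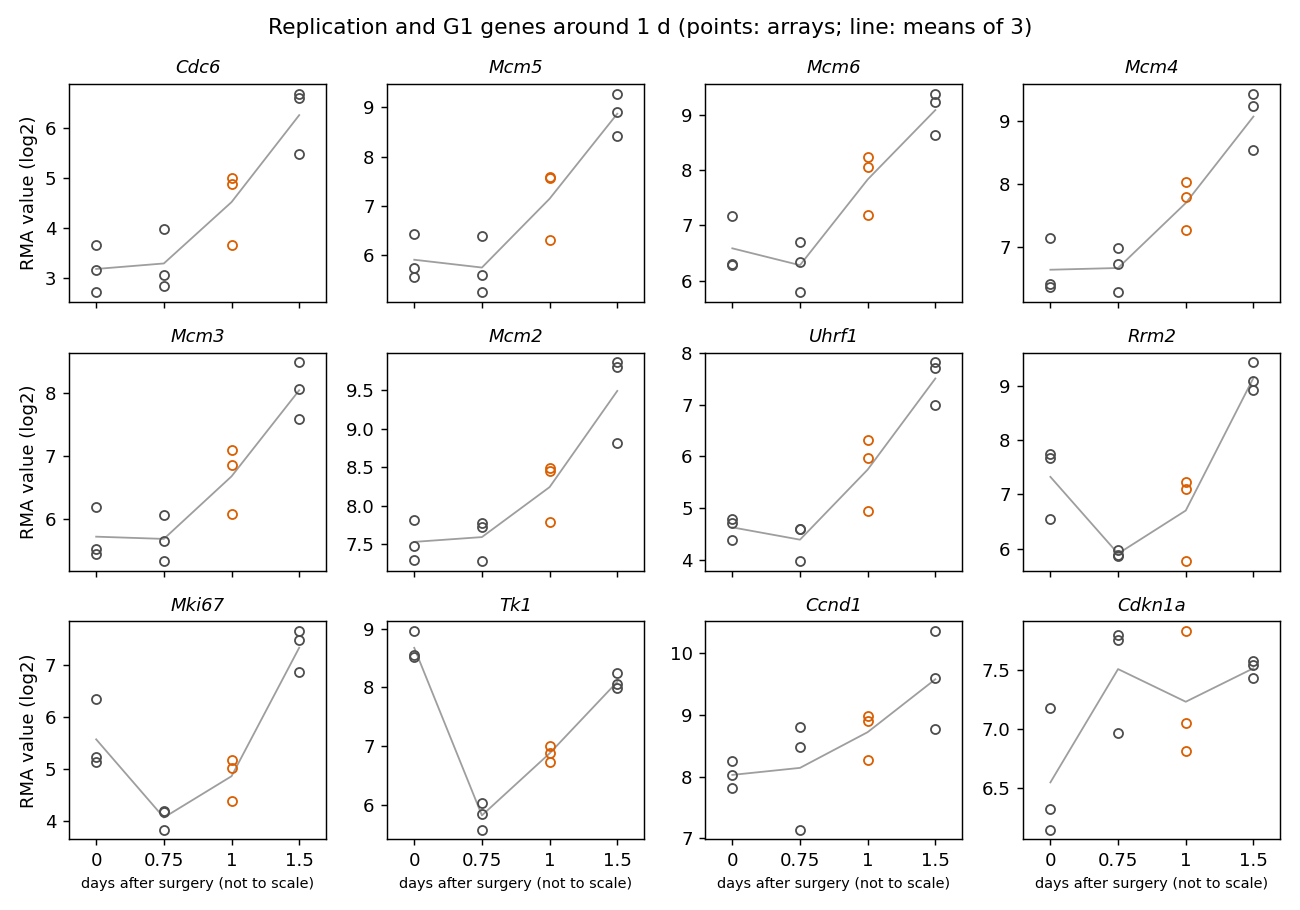
RMA values (log2, vertical axis) of 12 replication and G1 genes on each array at 0, 0.75, 1 and 1.5 d after surgery, with 1 d in orange and a line through the means of 3. The arrays of 0.75 and 1.5 d were deposited under another run of sample numbers. The licensing genes (Cdc6, Mcm2 to Mcm6) stand at 1 d between their level at 0.75 d and that at 1.5 d, with 1 array of 1 d low, while the means of Rrm2, Mki67 and Tk1 lie below those of 0 d.

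The neighbouring times place 1 d on this course. Against 0.75 d 160 genes passed the threshold (1.17%), 81 higher at 1 d (0.594%) and 79 lower (0.579%). Against 1.5 d 287 passed it (2.1%), 155 higher at 1.5 d (1.14%) and 132 lower (0.968%). These comparisons share the 1 d arrays with the main one. The arrays of 0.75 d and 1.5 d were deposited under another run of sample numbers than those of 0 d and 1 d. Whether the 2 runs were processed apart is not given here, so such a difference cannot be told apart from time. Mcm6 was 1.55 higher at 1 d than at 0.75 d (adjusted p = 0.0355) and was the only licensing gene past the threshold there. By 1.5 d 9 licensing genes, 15 fork and nucleotide genes and 9 mitotic genes were higher than at 1 d, with Cdc6 higher by 1.74, Mcm5 by 1.73, Rrm2 by 2.43 and Mki67 by 2.48. Of the proteasome subunits 15 were lower at 1.5 d than at 1 d, among them Psma1 by -0.42 ± 0.09, and Psma1 had also been 0.36 lower at 0.75 d. E2f6 followed the same course, 0.49 higher at 1 d than at 0.75 d and past the threshold downward at 1.5 d. Serpina3n was lower at 1.5 d by -1.57 and Lifr higher by 1.44. The counts against 0.75 d were 7 higher and 5 lower without 1 d replicate 2, 6 and 6 without 1 d replicate 3, 8 and 5 without 0.75 d replicate 1, and 9 and 10 without 0.75 d replicate 2, with 45 higher without 0.75 d replicate 3. Against 1.5 d they were 62 higher and 70 lower without 1 d replicate 1, and 49 and 43 without 1.5 d replicate 2. The lower count alone also moved without 1.5 d replicate 1 (44), and both moved without 1 d replicate 2 (91 and 54), while without 1 d replicate 3 the lower genes numbered 48.

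**Figure D4:**
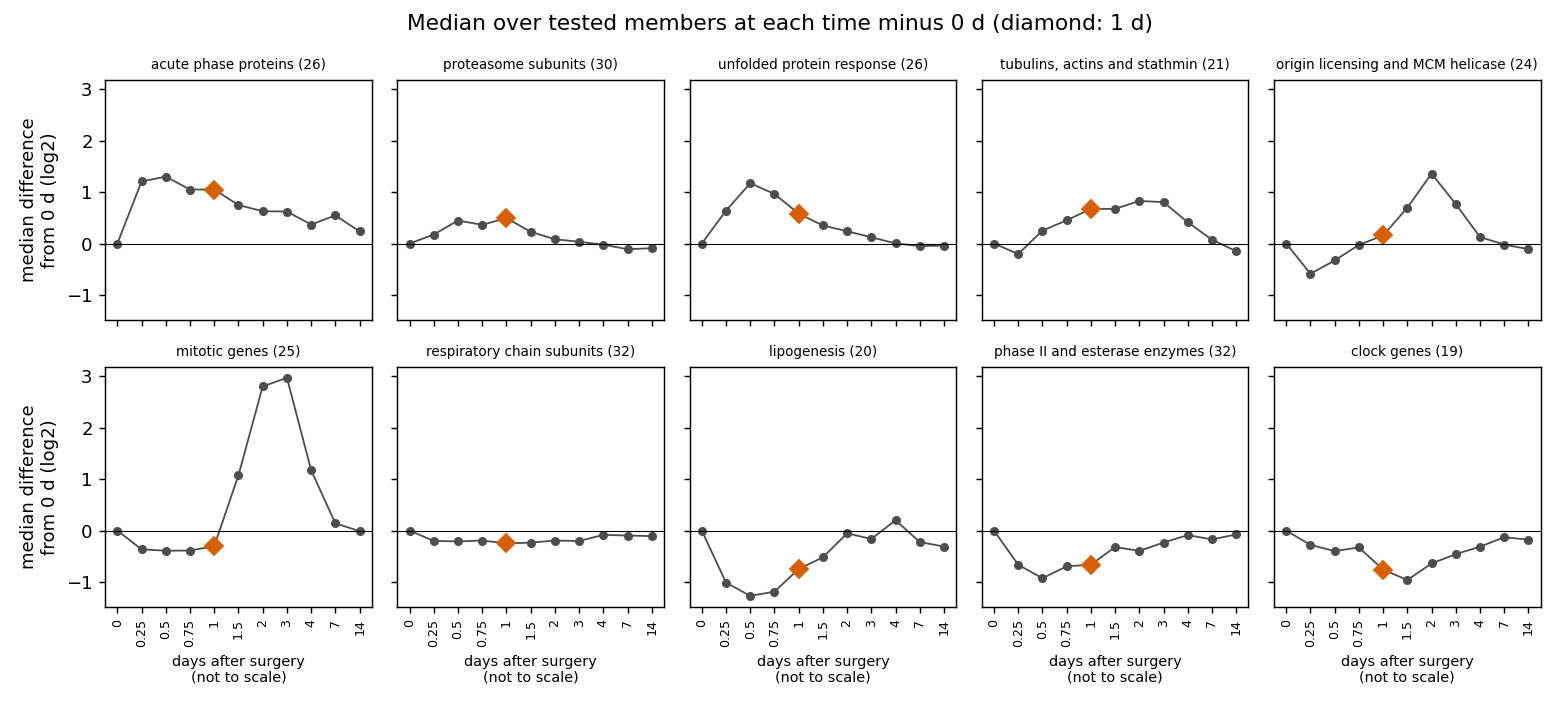
Median difference from 0 d (log2, vertical axis) over the tested members of 10 lists at the 11 times in days (horizontal axis, not to scale), with the member number in brackets and 1 d as an orange diamond. The arrays of part days were deposited under another run of sample numbers than those of whole days. At 1 d the proteasome median is at its highest, 0.494, the unfolded protein response (0.581) has come down from 1.17 at 0.5 d, and the mitotic median (-0.303) precedes its climb to 2.97 at 3 d.

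Lipogenic calls were falls and most cholesterol calls rises. Of 20 lipogenic genes 12 fell and 0 rose, with a median of -0.745. Scd1, the stearoyl-CoA desaturase, read 13.88, 14.08 and 14.22 at 0 d and 11.76, 11.87 and 11.95 at 1 d (-2.20 ± 0.46, adjusted p = 0.0013), having been 2.23 lower still at 0.75 d. Srebf1, its transcription factor, was down by -0.88 ± 0.21 and likewise 1.14 above its level of 0.75 d. Fasn, fatty acid synthase, fell by 1.05 ± 0.31. Of 21 genes of cholesterol synthesis and uptake 8 rose and 1 fell, with Sqle, squalene epoxidase, going from 8.37, 9.05 and 8.63 to 10.45, 10.16 and 10.31. That count was 5 without 1 d replicate 1, 2 without 1 d replicate 2, 1 without 1 d replicate 3, 1 without 0 d replicate 1, 3 without 0 d replicate 2, and 4 and 5 with the other choices of probe set. Fatty acid oxidation was mixed, with Cyp4a14 and 2 others risen and Acaa1b, a peroxisomal thiolase (-1.99 ± 0.21), Ppara, its transcription factor (-1.01 ± 0.26), and Acads fallen, of 20 tested.

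Calls among conjugating and bile acid genes were falls. Of 32 conjugating enzymes and esterases 19 fell and 0 rose, with a median of -0.664, and 1 rose without 1 d replicate 1 or without 0 d replicate 3. Ces1e, a carboxylesterase, read 10.01, 9.79 and 10.14 at 0 d and 7.65, 7.88 and 7.82 at 1 d (-2.20 ± 0.20, adjusted p = 4.64e-08), and Ugt2b1, a glucuronosyltransferase, read 13.12, 13.09 and 13.13 and then 10.90, 11.49 and 11.38. Members of the Ugt2b, Ces1 and Gst families resemble each other closely, so probes may report on more than 1 copy. Of 24 cytochrome P450 genes and their regulators 7 fell and 3 rose, Cyp2f2 the most (-1.36 ± 0.16), with 4 falls left without 0 d replicate 3. The risen were Ahr, Cyp3a13 and Cyp2c39, of which 1 was left without 1 d replicate 1 or 0 d replicate 1 and 0 without 0 d replicate 2. Bile acid genes had 8 of 23 fallen and 0 risen, led after Cyp7a1 by the transporter Slco1a1 (-1.60 ± 0.25) and the bile acid ligase Slc27a5 (-1.02 ± 0.08), and 5 were left without 0 d replicate 1. Cyp7a1 was by then 2.84 above its level at 0.75 d (adjusted p = 0.0271).

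In the male-biased programme maintained by growth hormone 11 of 17 tested members fell and 0 rose, including the hormone's receptor Ghr (-0.67 ± 0.18) and its effector Stat5b (-0.54 ± 0.18), and 6 left without 1 d replicate 1. Of 10 female-biased genes 0 passed in either direction. The sex of the mice is not given in the sources used here.

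Genes of nitrogen and sugar metabolism gave calls in both directions. Of 35 genes of the urea cycle and of amino acid and pyrimidine breakdown 13 fell and 2 rose, with 1 rise left without 1 d replicate 2, 1 d replicate 3 or 0 d replicate 2. The falls include Upp2, given above, and Dpyd (-0.41), which act on pyrimidines. Otc, ornithine transcarbamylase, went from 12.97, 12.95 and 12.96 to 11.84, 12.17 and 12.10 (-0.93 ± 0.10), whereas Cps1, the entry enzyme of the cycle, stood at 13.97, 13.96 and 13.83 and then at 13.52, 13.92 and 13.92 and did not pass (adjusted p = 0.401). Arg1, arginase, was -0.35 below 0 d and -0.49 below 0.75 d. Among 23 genes of glucose metabolism 5 fell and 3 rose. Gys2, the liver glycogen synthase, fell by 1.72 ± 0.33 and Pklr, the liver pyruvate kinase, fell by 1.51 ± 0.26, while Pkm (0.63) and Ldha (0.89), of anaerobic glycolysis, and Slc2a1 (0.61), a glucose transporter, rose. Of these 3 rises 1 was left without 1 d replicate 1 or without 0 d replicate 1, and array weights gave 5. The biosynthetic genes Odc1 of polyamine synthesis (0.87 ± 0.16), Ctps (0.87 ± 0.18) and Cad (0.69 ± 0.13) of pyrimidine synthesis rose, 3 of 13 tested, and the uridine kinase gene Uck1 fell (-0.49), with its arrays overlapping. The fall was lost without 1 d replicate 1, 1 d replicate 2 or 0 d replicate 1 and when only the 6 arrays were fitted. Between 0.75 d and 1 d Cad dropped by 0.81.

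Complement and coagulation proteins are made by the same hepatocytes as the acute phase proteins. Of their genes 14 of 31 tested fell and 0 rose, with a median of -0.213, and 1 rose without 0 d replicate 3. Complement factor C2 went from 10.34, 10.64 and 10.07 to 9.71, 9.26 and 9.26 (-0.94 ± 0.13), and Proc, the anticoagulant protein C, from 12.38, 12.46 and 12.44 to 11.89, 11.90 and 11.89. Of 13 chemokines 2 rose, Cxcl14 and Ccl6 (1.94 ± 0.38). Of 22 interferon genes 0 rose and 2 fell (9.1%, near the share of all genes), Cxcl9 and Psmb9, a subunit of the inducible proteasome. Leaving out 1 d replicate 2, 1 d replicate 3, 0 d replicate 1 or 0 d replicate 2 left 1 of these falls, and 5 interferon genes fell with only the 6 arrays, array weights or only the arrays of whole days.

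Among 24 transcription factors of the hepatocyte, Cebpa, a factor that holds hepatocytes in quiescence, read 11.06 and 11.38 on 0 d replicates 1 and 2, with replicate 3 just below them, and 10.10, 9.86 and 10.03 at 1 d (-1.15 ± 0.23, adjusted p = 0.000707). Hnf4a read 11.88, 11.90 and 12.09 and then 12.04, 12.02 and 11.99, with the groups overlapping (adjusted p = 0.649). The list had 4 falls in all, with 2 left without 1 d replicate 3, 0 d replicate 1 or 0 d replicate 3, and its rise, Atf5, lost the threshold when 1 d replicate 1 or 0 d replicate 1 was left out.

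Clock genes differed, and the arrays of 0 d differed among themselves. Of 19 tested 8 fell and 2 rose. Arntl, the activator of the clock, read 5.28, 5.39 and 8.12 at 0 d and 8.59, 7.89 and 8.14 at 1 d, so that 0 d replicate 3 lay within the range of 1 d. Per3, a component of the repressing side, went from 7.71, 8.20 and 6.41 to 5.18, 5.58 and 5.27, and Dbp stood at 11.05, 11.65 and 8.36 at 0 d with all 3 values of 1 d below these. In all 8 fallen genes 0 d replicate 3 was the array nearest to 1 d. Without it 5 genes rose, without 0 d replicate 2 the falls numbered 2 and the rises 0, without 0 d replicate 1 they were 4 and 0, and the falls were 4, 4 and 5 and the rises 1 without each 1 d array in turn. The rises were 0 with only the 6 arrays. The hour at which each liver was taken is not given, so time of day cannot be told apart from time after surgery.
Ciart, a repressor of the clock, had its promoter at chr3:95882179-95882478 on the minus strand (GRCm38.p6, RefSeq), shown because the E-box CACGTG (capitals), the site of the Clock and Arntl proteins, occurs there more than once.
Ciart: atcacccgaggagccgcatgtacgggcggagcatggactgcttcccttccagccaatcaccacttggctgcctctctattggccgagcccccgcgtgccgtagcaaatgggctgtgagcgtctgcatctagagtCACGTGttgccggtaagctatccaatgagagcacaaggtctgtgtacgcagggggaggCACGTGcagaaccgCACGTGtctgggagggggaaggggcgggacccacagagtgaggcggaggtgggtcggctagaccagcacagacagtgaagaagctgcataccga
Of 7 fallen clock genes with a listed window 3 held the E-box, against 8.09% of all genes. Ciart itself read 7.61, 8.17 and 5.80 at 0 d and 5.52, 5.46 and 5.67 at 1 d.

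**Figure D5:**
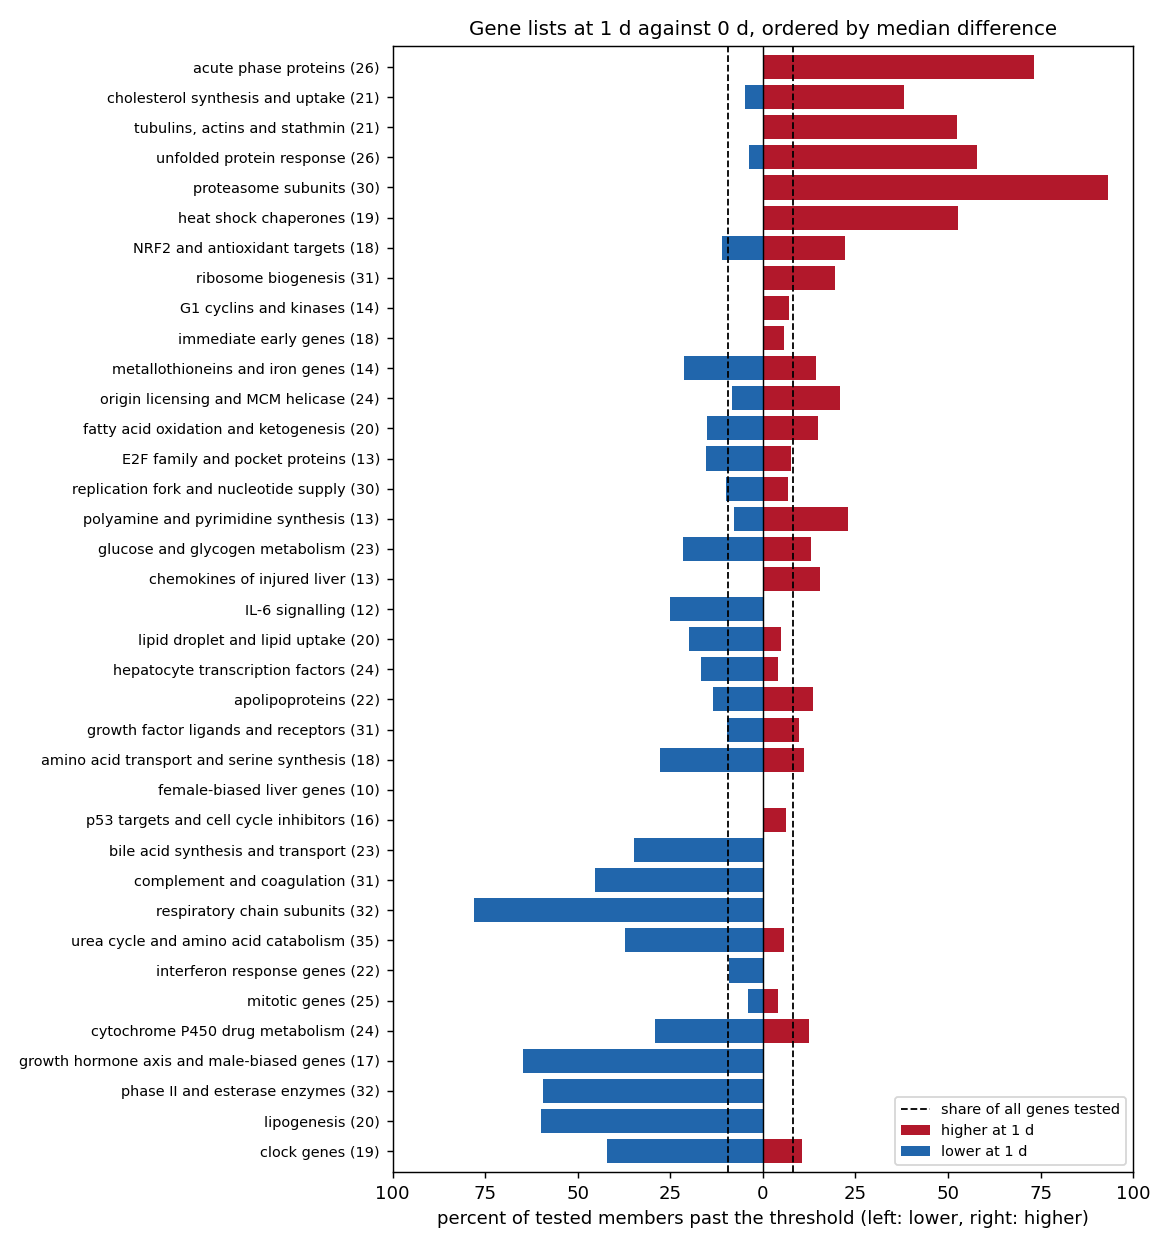
Percent of tested members of each of 37 lists that rose (red, right) or fell (blue, left) at 1 d, ordered by median difference, with the number tested in brackets and dashed lines at the shares of all genes, 8.16% and 9.55%. The longest bars are the proteasome (93.3% risen), the respiratory chain (78.1% fallen) and the acute phase list (73.1% risen).

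Markers of other liver cells were measured beside these results. Of 14 Kupffer cell markers 2 rose, Marco and Cd68 (0.88 ± 0.29), and the mean log2 level of the list was 7.57 to 8.14 over the 0 d arrays and 8.44 to 8.60 over the 1 d arrays. Clec4f, which defines these cells, averaged 8.85 at 0 d and 8.52 at 1 d. Of 10 neutrophil and monocyte markers 1 rose, S100a9, from 4.68, 5.09 and 4.90 to 7.34, 6.35 and 6.11, while Camp averaged 5.03 and then 4.96 and Ngp 5.15 and then 5.12, and the list's mean was 5.51 to 5.62 and then 5.82 to 6.14. Of 15 stellate cell markers 1 rose, Timp1 (1.57 ± 0.34), and of 15 endothelial markers Wnt2 rose by 0.70 and Kdr fell by 0.46. Lymphocyte and bile duct markers gave 0 calls among 9 and 6 tested. Of 3 tested erythroid markers 2 fell, Alas2 from 9.98, 10.13 and 9.81 to 8.03, 8.62 and 8.69 and Car1 to 4.76, 4.90 and 4.69. Of 8 fat-cell markers 2 fell, Car3 (-2.19 ± 0.36) and Lipe, which hepatocytes also express. Of 7 skeletal muscle markers 1 rose (Acta1, 0.35), and of 4 pancreas markers 2 fell (Cela1, -0.96, and Cela2a, -0.98). Of 9 hepatocyte markers 1 rose, Fgb, and 0 fell. The part of other cells in the changes of the macrophage, neutrophil and erythroid genes was not tested.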

How the data were processed

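Total RNA of 33 mouse livers, 3 at each of 11 times, was hybridised to Affymetrix 3′ arrays from 5 µg of RNA, per the labels' protocols. The deposited values are log2 summaries that the authors made with RMA, per the submitters' processing notes, whose version is not given in the sources used here. RMA gives all arrays nearly the same distribution, which takes out a shift shared by most genes and shrinks differences of faint ones.

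Of 45101 probe sets, 34945 carried a single symbol in the platform annotation, 34741 of them matched a gene of the RefSeq table by Entrez number, and 932 carried several symbols and 9160 none. These last, and the 64 controls, named no gene. Each of 18193 genes was represented by its probe set of highest mean across the series. Genes reaching 5 (log2) on 3 or more arrays, 13642 in all, entered the test. limma 3.58.1 (R 4.3.3) estimated a mean for every time from the 33 arrays together, with 22 residual and 3.69 prior degrees of freedom. Tests were two-sided, with Benjamini-Hochberg adjustment over all genes tested and a threshold of 0.05. "Rose" and "fell" mean past this threshold. The script was tested on simulated data. The labels say only that replicates are biological, so p-values measure the spread between these samples.

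The 15 largest rises and falls were named among called genes whose arrays lay wholly apart, leaving out clone and predicted names, then members of gene lists within the account of each list, and cell type markers as levels. The comparison, the lists and the markers were chosen with earlier results of these data known. For the 30 leading genes and the called list members, 0 had another probe set called in the other direction. Promoters came from a RefSeq table of GRCm38.p6, which listed no window for Mcm4. Other filters, probe set choices, scalings, fits and omitted arrays were tried, and a fit of arrays at whole days only was added after seeing the data.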

Additional observations from a re-analysis of the deposited data

Results flagged for a closer look

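Among the probe sets left out of the gene comparisons because they carry no symbol or several, 4290 passed the same filter and 437 (10.2%) passed the threshold between 1 d and 0 d, 239 higher and 198 lower. They were singled out because they lie outside the measurement reported above; what they measure is not named here.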

How the results depend on the processing

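Between 1 d and 0 d the counts of genes stayed within 1.5 times of 1113 risen and 1303 fallen under other filters, probe set choices, scalings and fits, the highest being 1459 and 1745 with array weights. A 2-fold minimum left 132 and 157, and 91 of 298 called list members. Leaving out single arrays gave 738 to 1049 risen and 817 to 1227 fallen genes, and 220 to 283 list members. The replicate numbers do not pair livers in the labels, and same-numbered arrays of 1 d and 0 d deviated from their group means with correlations of -0.133, 0.11 and -0.124. With the replicate block 1108 genes rose and 1311 fell.

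The comparisons with neighbouring times depend more on the setting. Against 0.75 d, 81 higher and 79 lower genes became 50 and 48 with no filter, 47 and 52 with the probe set of largest variance, 1065 and 787 with array weights, 290 and 132 with only the 6 arrays, and 17 and 6 at 2-fold. The lower count was 49 with a common median. Single arrays left out gave 6 to 71 and 5 to 69. Against 1.5 d, 155 higher and 132 lower genes became 860 and 1004 with array weights, 288 and 254 with only the 6 arrays, and 59 and 8 at 2-fold, with 49 to 122 and 43 to 98 when single arrays were left out. The cause of these moves was not tested.

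Of 1332 list counts under these settings 222 moved by over 1.5 times. Of 510 values of the 30 leading genes 504 kept their call and direction, 6 lost the call and 0 reversed; the 6 are given above. The number of arrays, and signal near the floor for genes such as Cdc6, limit what can be seen.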

Other observations

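A further group described by its values is ribosome biogenesis, in which 6 of 31 tested genes rose and 0 fell at 1 d, led by the assembly factor gene Rrs1 (0.67 ± 0.14). The count was 11 without 0 d replicate 1, 2 without 1 d replicate 2, 1 d replicate 3 or 0 d replicate 2, and 3 without 0 d replicate 3. It was 3 with only the 6 arrays. Of 18 antioxidant genes 4 rose and 2 fell, with Srxn1, sulfiredoxin, at 7.73, 7.97 and 7.94 at 0 d and 8.51, 9.10 and 9.24 at 1 d (1.07 ± 0.20, adjusted p = 0.0004), and Gsta2, a glutathione transferase, among the fallen.

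Of the 2416 genes called at 1 d, 468 had their mean farthest from 0 d at this time among the 10 later times. The share over all genes is not given here, and a call at 1 d itself favours a farthest mean at that time. Against 0.75 d 82 of the called genes also passed the threshold, beside 160 (1.17%) of all genes tested. Against 1.5 d 137 did, beside 287 (2.1%), and 2213 passed it against neither neighbour. These comparisons share the 1 d arrays. Missing the threshold does not show that a gene stayed level, since the counts against both neighbours moved with the setting. Mllt11 and Impact, chosen after their values were seen, were among those that stood highest at 1 d. Mllt11 read 5.08, 4.62 and 4.94 at 0 d and 6.32, 6.36 and 6.37 at 1 d and averaged 5.54 at 0.75 d and 4.99 at 1.5 d. Impact, an inhibitor of the amino acid sensor kinase Gcn2, read 7.20, 7.41 and 7.46 and then 8.39, 8.50 and 8.54, and averaged 7.41 at 1.5 d. The arrays of part days, among them 0.75 d and 1.5 d, are those deposited under the other run of sample numbers.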
